A study of Mus musculus with 15 samples.

Results

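The 4 libraries described here came from cultured mouse hippocampal cells that had received only the 2 solvents of the study, DMSO in place of an ACSS2 inhibitor and plain medium in place of acetate. They were chosen by their labels and are 4 of 15 RNA-seq libraries. The other 11 received 5 mM acetate, 20 µM inhibitor, or both, and are not analysed here. All 15 libraries share the source, plated primary neurons of the hippocampus from a core facility, the growth medium (neurobasal medium with GlutaMAX and B27), differentiation for 7 days and a treatment of 24 h. The sources used here do not give the strain, genotype, age or sex of the donor animals. Nothing in the labels says that the 4 replicates are separate cultures or animals, so the spread between them may be technical. No treatment is compared. The aim is a description of the untreated state: which genes led, which members of each gene family were present and at what level, which cell types left transcripts, and how far 4 libraries of a single group lay apart.

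Primary hippocampal cultures are made from dissociated tissue of young animals. They are used to study pyramidal neurons, the glutamate-releasing cells of the CA fields, and the GABA-releasing interneurons that inhibit them. In such cultures the neurons extend axons and dendrites and form synapses within days. Astrocytes, the support cells that clear glutamate and carry lipid, usually grow beside them, and smaller numbers of microglia (the brain's resident macrophages), oligodendrocyte precursors and meningeal cells can be carried over. ACSS2 makes acetyl-CoA from acetate, and acetyl-CoA donates the acetyl groups that histone acetyltransferases place on histones and deacetylases remove.

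Each value below is in CPM, a gene's count scaled to the total of 1e6 gene counts in its library, and values of the 4 libraries stand in the order of their replicate numbers, 1 to 4. Means are given ± SD over 4 libraries. Members of a gene family are compared as CPM per kilobase (kb) of exon, since a long transcript collects more reads than a short one at the same number of copies. Where genes are ordered by plain CPM, the order is that of their share of counts. Gene counts per library were 25684575, 27262766, 19929931 and 24258345, so a single count was worth 0.0367 to 0.0502 CPM, and 0 counts allow a level of up to 0.110 to 0.151 CPM (3 counts). Of 24498 genes in the table, 13124 reached 1 CPM in all 4 libraries, 2440 had a mean of at least 100 CPM, 65 a mean of at least 1000 CPM, and 5514 had no count in any of the 4. Protein-coding genes held 97.6% to 97.9% of the counts.

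Library 1 stood apart from the other 3. Among the 9927 genes with a mean of at least 10 CPM, 110 (1.11%) were at least 2-fold higher in library 1 than the mean of the others and 362 (3.65%) at least 2-fold lower. The same counts were 14 (0.141%) and 10 (0.101%) for library 2, 0 (0%) and 9 (0.0907%) for library 3, and 4 (0.0403%) and 9 (0.0907%) for library 4. Between a pair of libraries, the SD of the log2 difference over these genes was 0.50 to 0.54 for pairs with library 1, and 0.13 to 0.22 for pairs without it. Some values that rest on library 1 are therefore given with and without it. Others are given per library or only as a mean ± SD over all 4. These are counts of genes past a fold, with no test, because a single library has no replicate.

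**Figure D1:**
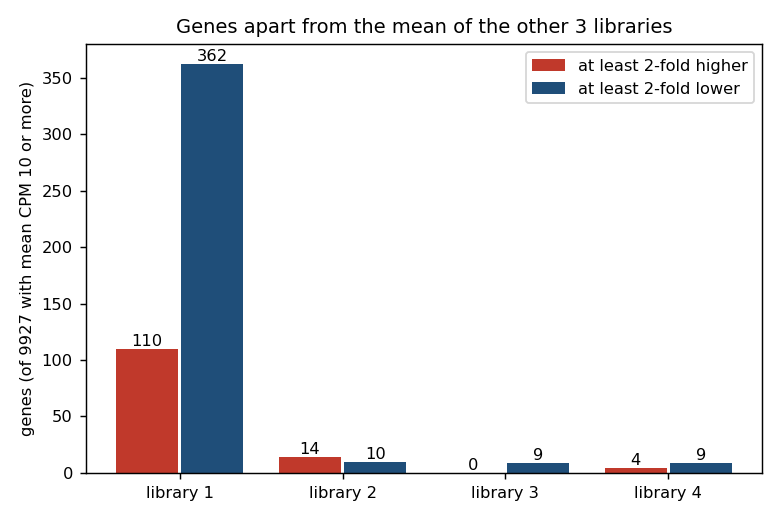
Number of genes (of 9927 with a mean of at least 10 CPM) that lay at least 2-fold above or below the mean of the other 3 libraries, for each DMSO vehicle library. Library 1 has 110 higher and 362 lower, and the other 3 libraries have 0 to 14.

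The most abundant transcripts came from glial, housekeeping and cytoskeletal genes. Gfap, the intermediate filament protein of astrocytes (chr11:102887336-102900912 in GRCm38, minus strand), had 2418, 10998, 8968 and 9519.9 CPM. Apoe, the lipid carrier that astrocytes secrete (chr7:19696109-19699188, minus strand), had 3509.7, 9050.5, 8512 and 9079.8 CPM. For both genes library 1 was the lowest, 4.06-fold and 2.53-fold below the mean of the others, and libraries 2 to 4 lay close together. Rn45s, the precursor of the ribosomal RNAs, had 9662, 7587, 6359 and 4991 CPM and was the leading gene of library 1, whereas Gfap led libraries 2, 3 and 4. Rn45s stands for ribosomal RNA, not for messenger RNA. Imprinted and nuclear non-coding transcripts followed. Nnat, an imprinted gene of developing neurons, had 4253, 3559, 4456 and 4574 CPM, and Meg3, an imprinted long non-coding RNA, had 4231, 3517, 4134 and 3914 CPM. Malat1, a long non-coding RNA of nuclear speckles, had 2656, 2536, 5359 and 5532 CPM, with libraries 1 and 2 on a lower level and libraries 3 and 4 on a higher level.

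The remaining genes of the 20 with the highest mean were Actb (beta actin), Hsp90ab1 (a heat shock protein), Fth1 and Ftl1 (the ferritin subunits that store iron), Eef2 (translation elongation), Ckb (creatine kinase), Cst3 and Ctsd (cystatin C and cathepsin D of the lysosomal system), Psap (prosaposin), Tuba1a and Tubb2b (tubulins of developing neurons), Pkm (pyruvate kinase), Map1b (a microtubule-associated protein of growing axons) and Cfl1 (cofilin, which severs actin). Ctsd was at 1125, 2695, 2591 and 2815 CPM, Ftl1 at 1549, 2973, 2979 and 3189 CPM, and Cst3 at 1897, 2906, 2839 and 2954 CPM. In all 3, library 1 was the lowest and lay outside the range of the others. Tubb2b took the opposite course, with 2936, 2214, 2154 and 2129 CPM, as did Map1b, with 2846, 2299.7, 2013 and 1799.8 CPM. Cfl1 barely varied, at 2085, 2107, 2081 and 2145 CPM. Per kb of exon the order changed to Apoe (4101 ± 1468), Mir6236, a locus of 0.123 kb (3439 ± 1056), Cst3 (3080 ± 585), Nnat (2928 ± 316), Ftl1 (2761 ± 781), the metallothionein Mt2 (2149.7 ± 598) and the ribosomal protein Rplp1 (2088 ± 77.1), with Gfap eighth (1959 ± 934). These means include library 1, where Gfap had 594 CPM per kb against 2701, 2202 and 2338 in the others, so its place rests on library 1.

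The 10 most abundant genes of each library held 3.99%, 5.09%, 5.07% and 5.08% of its counts, with 95% Wilson intervals of 3.98% to 3.99%, 5.08% to 5.10%, 5.06% to 5.08% and 5.07% to 5.09%. These intervals cover counting error only. Without library 1 the share was 5.08% ± 0.009, against 4.81% ± 0.55 with it. The profile was otherwise flat, since 993 to 1106 genes were needed to reach 50% of the counts. Only 6 genes were among the 10 highest of all 4 libraries and 15 were in at least 1 of them. Of the 100 highest genes, 76 were shared by all 4 libraries and 88 by libraries 2 to 4.

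**Figure D2:**
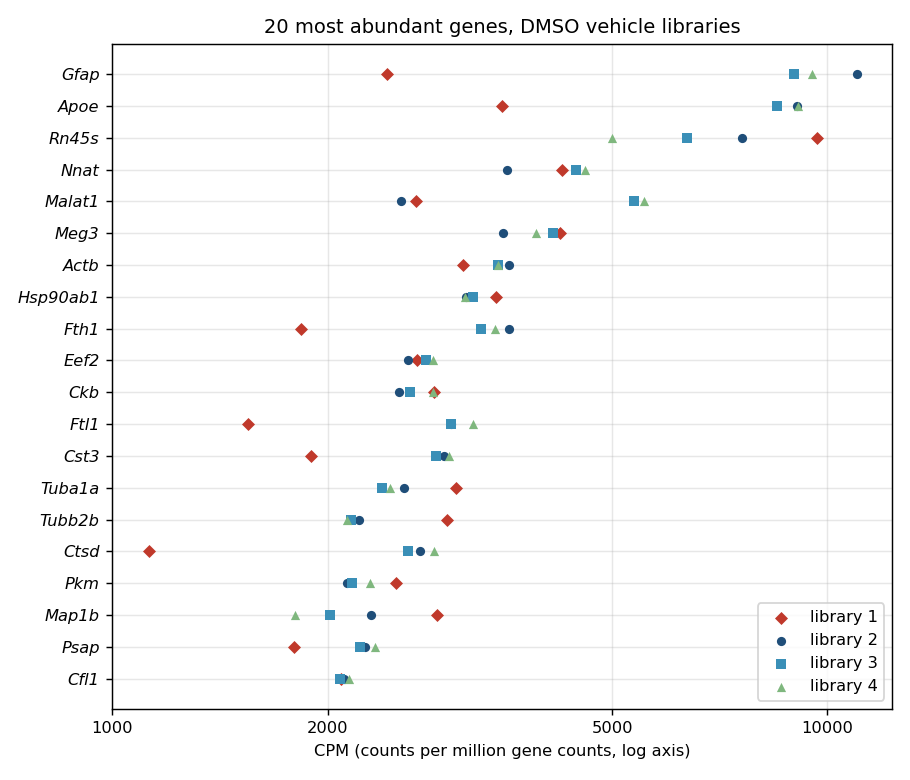
CPM (log axis) of the 20 genes with the highest mean, in each of the 4 DMSO vehicle libraries. Library 1 (red diamonds) lies to the left of the others for Gfap, Apoe, Fth1, Ftl1, Cst3, Ctsd and Psap and to the right for Rn45s, Tuba1a, Tubb2b and Map1b.

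The label of the cultures, hippocampal neurons, was checked against 22 lists of cell type markers with 199 genes in all. Every pan-neuronal gene of the list was present, with 14 of 14 at 1 CPM or more in all 4 libraries, and the list summed to 8361, 6268, 6561 and 6406 CPM. Its leading members were Tubb3, the neuronal beta tubulin (2184, 1191, 1270.3 and 1305 CPM), Uchl1, a neuronal deubiquitinase (1236, 945, 1108 and 1078 CPM), and Stmn2, which regulates growth cone microtubules (1224, 762, 854 and 782 CPM). Library 1 was the highest of the 4 for 9 of the 14 genes and the lowest for 3. Among all 9927 genes with a mean of at least 10 CPM, it was the highest or lowest for 71.6%. The sum was 6899 ± 982 CPM with library 1 and 6412 ± 147 without it. The neuronal RNA-binding protein Elavl3 did not share that pattern, with 785, 789.8, 787 and 788 CPM. In bulk RNA, fewer cells of a type and less RNA per cell cannot be told apart, and a higher share of neuronal RNA cannot be told apart from a lower share of other RNA. Sums in CPM depend on the number and length of the listed genes and are compared between libraries, not between lists.

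Glutamatergic markers were all detected, 10 of 10, and summed to 2518, 1403, 1672 and 1564 CPM. The vesicular glutamate transporter Slc17a7, which fills vesicles with glutamate, had 921, 431, 570.3 and 557 CPM, and Camk2a, the alpha CaM kinase II of forebrain excitatory neurons, had 841, 393, 492 and 455 CPM. The pyramidal lineage factor Neurod6 had 333, 156, 187 and 141 CPM. In these 3 leading genes library 1 lay above the range of the others. The rest of the list did not share this as a whole. Of the 9 members with a mean of at least 10 CPM, library 1 was the highest for 5 and the lowest for 4. It was the highest or lowest for 71.6% of all genes of that level. Slc17a6, the second vesicular glutamate transporter, was low, at 6.89, 14.9, 14.1 and 12.4 CPM, and library 1 was the lowest there. Per kb of exon, Slc17a7 exceeded Slc17a6 by 185-, 40.1-, 55.8- and 61.9-fold. It exceeded Slc32a1, the vesicular GABA transporter, by 17.4-, 7.77-, 10.9- and 9.49-fold per kb, with library 1 the highest of the 4 for both ratios.

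GABAergic markers were present in all libraries, with 15 of 17 at 1 CPM or more throughout, and summed to 781, 931, 877 and 876 CPM. Somatostatin (Sst), a peptide of dendrite-targeting interneurons, had 153, 231, 253 and 255 CPM, and the calcium buffer Calb2 had 194, 139.6, 151 and 146 CPM. The GABA-synthesising enzyme Gad1 had 67.9, 95.1, 80.6 and 78.2 CPM. Pvalb, the calcium buffer of fast-spiking interneurons, was low and spread widely, at 2.18, 21.1, 15.003 and 15.8 CPM. Vip, the peptide of a further interneuron class, stayed at 0.0779, 0.477, 0.0502 and 0.124 CPM, close to the level of a few counts. The sum varied less than that of the glutamatergic list. It was 866 ± 62.4 CPM with library 1 and 895 ± 31.2 without it, against 1789 ± 498 and 1547 ± 136 for glutamatergic markers. Single genes differed less between the lists. Over members with a mean of at least 10 CPM, the median SD of log2 CPM was 0.27 for GABAergic and 0.30 for glutamatergic markers. Library 1 was the lowest for 8 of these 11 GABAergic members and the highest for 2. It was at either end for 71.6% of all genes of that level.

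Subfield markers were uneven. CA1 markers summed to 216, 181, 198 and 183 CPM, led by Wfs1 (wolframin, 87.3, 80.2, 87.7 and 86.2 CPM), and CA3 markers to 309, 232, 259 and 246 CPM, led by the pentraxin Nptx1 (129, 83.8, 97.8 and 91.3 CPM) and the kainate receptor subunit Grik4 (118, 101, 109 and 107 CPM). Dentate granule cell markers were low, with a sum of 16.1, 39.4, 32.5 and 32.5 CPM. Prox1, the transcription factor that defines granule cells, had 7.98, 20.03, 13.3 and 13.3 CPM, and Tdo2 and Lct, further granule cell markers, had at most 1.36 CPM in any library. Cajal-Retzius markers summed to 52.8, 131, 99.9 and 94.7 CPM and were almost entirely Reln, the secreted protein reelin (47.03, 119.9, 89.3 and 86.1 CPM), which interneurons also make, while Trp73 and Lhx1, the factors more specific to those cells, had 3.43, 6.24, 5.62 and 4.49 and 0.234, 0.44, 0.452 and 0.206 CPM. Several of the CA markers are also found outside those fields, so the sums do not assign neurons to a field. Markers of immature neurons summed to 3995, 3627, 3439 and 3431 CPM, most of it Tubb2b. The migration protein Dcx had 172, 168, 136 and 139 CPM and the factor Sox11 had 221, 436, 383 and 391.9 CPM, with library 1 apart from the rest for Sox11 but not for Dcx.

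Astrocyte transcripts were abundant, and part of them were lower in library 1. The list summed to 5739.9, 15068, 12319 and 13030.2 CPM, 11539 ± 4038 with library 1 and 13472 ± 1427 without it, and 14 of 15 members reached 1 CPM in every library. The difference was not shared by the whole list. Of its 14 members with a mean of at least 10 CPM, 3 were at least 2-fold lower in library 1, against 3.65% of all genes. Library 1 was the lowest for 8 of the 14 and the highest for 4. It was the highest or lowest for 71.6% of all genes with a mean of at least 10 CPM. Aldoc, the astrocytic aldolase, had 711, 1263, 1069 and 1146 CPM. By contrast the glutamate transporter Slc1a3 had 744, 717, 558 and 556 CPM, glutamine synthetase Glul had 474, 366, 335 and 339 CPM, and Aldh1l1, a folate enzyme used as a pan-astrocyte marker, had 158, 161, 145 and 147 CPM. The 3 astrocyte genes at least 2-fold lower in library 1 were Gfap, the calcium-binding protein S100b (10.9, 34.3, 25.04 and 27.2 CPM) and angiotensinogen, Agt (3.39, 17.1, 12.9 and 14.9 CPM). Slc1a3, Glul and Aldh1l1 were as high there as elsewhere or higher.

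Progenitor and radial glia markers summed to 2779, 3418, 2610.2 and 2762 CPM. Vim, the filament protein vimentin, was lowest in library 1 (683, 1589.6, 1158 and 1253 CPM), and Fabp7, the brain lipid-binding protein of radial glia, was highest there (1218, 785, 600.4 and 605 CPM). Eomes, the factor of intermediate progenitors, was low at 1.71, 5.36, 4.97 and 3.83 CPM. All 10 markers of dividing cells were detected, and the list summed to 575, 322, 278 and 275 CPM. All 10 were highest in library 1. That library was the highest or lowest for 71.6% of all genes with a mean of at least 10 CPM. Of the 10, 6 were at least 2-fold higher in library 1, against 1.11% of all genes. The topoisomerase Top2a had 112, 55.97, 40.9 and 42.3 CPM and the mitotic kinase Cdk1 had 68.5, 27.7, 23.7 and 24.9 CPM.

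Oligodendrocyte lineage genes split. Olig1, the lineage factor, had 719, 81.8, 77.3 and 71.3 CPM and was the gene furthest above the others in library 1 (9.36-fold), whereas the precursor genes Gpr17 (2.57, 45.6, 24.3 and 35.9 CPM) and Sox10 (7.63, 32.5, 19.9 and 30.5 CPM) were lowest in library 1. The precursor list summed to 827, 251, 199 and 218 CPM, with 373.8 ± 303 CPM in the mean of 4 and 223 ± 26.5 without library 1, and most of the difference was Olig1. Of the myelin genes, Cnp had 76.3, 124, 97.5 and 119.8 CPM and Mbp 6.62, 39.7, 25.4 and 31.2 CPM, while Mobp, Mog and Opalin, genes of myelinating cells, had at most 0.124 CPM in any library.

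Microglial transcripts were present in each library and lower in library 1. The list summed to 161, 796, 756 and 771 CPM, 621 ± 307 with library 1 and 774 ± 20.4 without it. All 10 members with a mean of at least 10 CPM were at least 2-fold lower in library 1, against 3.65% of all genes. The complement subunits C1qa, C1qb and C1qc, which microglia secrete and which tag synapses, had 24.96, 115, 103 and 108 CPM, 24.9, 131, 124 and 132 CPM and 24.7, 115, 116 and 114 CPM. Csf1r, the receptor for the survival signal of macrophages, had 10.2, 60.1, 59.4 and 61.3 CPM, and Trem2, a lipid receptor, had 9.03, 48.4, 50.4 and 49.5 CPM. P2ry12 and Tmem119, genes of microglia at rest, were low, at 0.35, 0.44, 0.251 and 0.453 and 0.662, 7.67, 6.62 and 9.77 CPM. Border macrophage markers summed to 3.66, 23.5, 19.97 and 20.4 CPM, and Ms4a7 held 75.6% of the mean sum.

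Because the C1q genes were low together in library 1, the DNA before the start sites of C1qb and C1qc is shown (C1qa has no entry), with the stretch AGGAAGT, a core that the ETS family of factors binds (which includes PU.1 of microglia), in capitals wherever it or its reverse complement occurs. The sequences are promoter entries of RefSeq on GRCm38.p6, written 5′ to 3′ on the strand of the gene. C1qb is on the minus strand at chr4:136886202-136886298, with the match 53 bases before the start site, and C1qc on the minus strand at chr4:136893058-136893154, with the match 195 bases before it. In both the match lies on the opposite strand.
C1qb: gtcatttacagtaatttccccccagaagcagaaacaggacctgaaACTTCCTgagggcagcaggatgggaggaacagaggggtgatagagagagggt
C1qc: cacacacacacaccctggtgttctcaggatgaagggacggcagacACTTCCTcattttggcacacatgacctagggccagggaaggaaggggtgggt
AGGAAGT was found on either strand, in windows from 250 bases before to 50 after the start site, for 5 of the 10 microglia genes that have an entry (50%: P2ry12, C1qb, C1qc, Fcrls and Ctss) and for 10.7% of 27025 genes. P2ry12 and Fcrls, also among the 5, had a mean under 10 CPM. A match is a description of the letters, not evidence of binding, and the motif was picked after the values were seen.

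Marker genes of the meninges, vessel wall and choroid plexus were also detected. Meningeal fibroblast markers summed to 126, 605, 515 and 662 CPM, with the collagens Col1a1 (38.4, 285, 244 and 332 CPM) and Col1a2 (12.8, 106, 92.98 and 117 CPM) in front, and all 5 members with a mean of at least 10 CPM were at least 2-fold lower in library 1, against 3.65% of all genes. Pericyte and smooth muscle markers summed to 223, 391, 326 and 532 CPM, mostly the contractile genes Acta2 (75.6, 139, 121 and 219.8 CPM) and Tagln (46.9, 132, 109 and 194 CPM), which were highest in library 4. Not all members followed these genes. Of the 5 with a mean of at least 10 CPM, library 1 was the lowest for 3 and the highest for 2. It was the highest or lowest for 71.6% of all genes of that level. Choroid plexus markers summed to 183, 556, 445 and 1109.8 CPM. That sum was almost all transthyretin, Ttr, with 164, 517, 406 and 1051 CPM. Library 1 was the lowest and library 4 the highest, and library 4 was also the highest for Folr1 (10.5, 19.73, 19.9 and 28.03 CPM), Clic6 and Aqp1. Ependymal markers summed to 107, 121, 117 and 135 CPM, most of it the ciliary factor Foxj1.

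Endothelial, erythroid and lymphoid transcripts were close to absent. Endothelial markers summed to 13.5, 7.74, 11.1 and 11.95 CPM, largely the receptor Kdr (10.9, 5.06, 7.18 and 8.04 CPM), and the tight junction gene Cldn5 and the receptor Tie1 had at most 0.0502 CPM. Of 6 erythroid genes, the 4 globins and Alas2 had 0 counts in all 4 libraries, which allows up to 0.151 CPM in the shallowest, and lymphocyte markers summed to at most 0.803 CPM. Of the 22 lists, 15 reached a sum of 100 CPM in every library, library 1 was lowest for 11 lists and highest for 8, and it lay outside the range of the other 3 for 19.

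**Figure D3:**
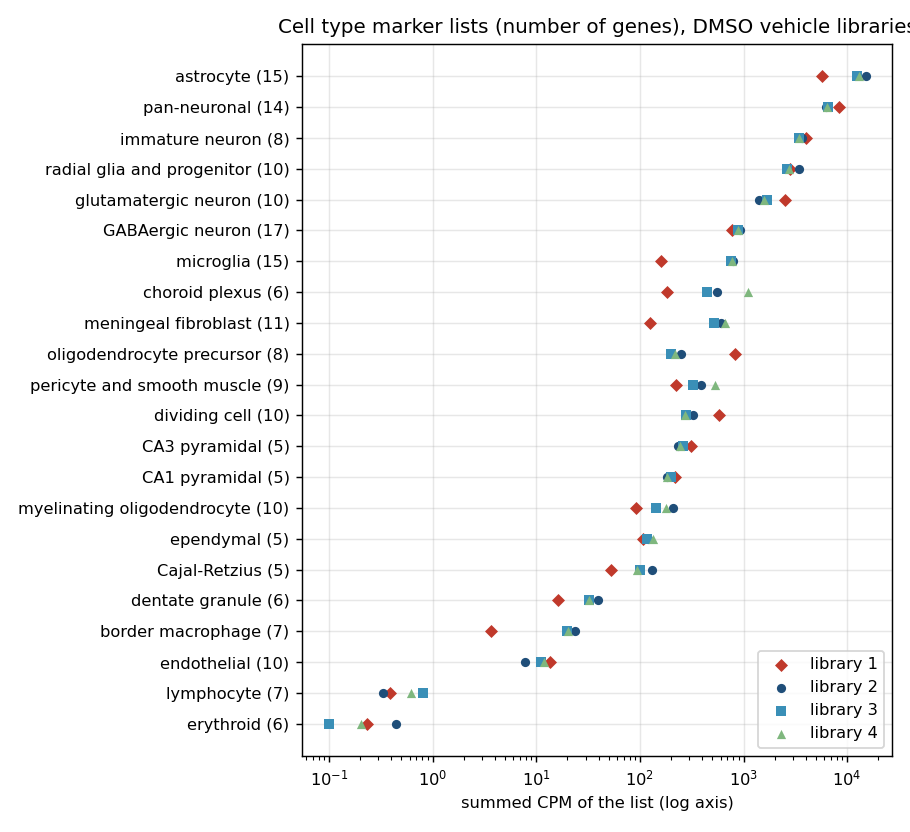
Summed CPM (log axis) of each cell type marker list in the 4 DMSO vehicle libraries, with the number of genes of each list in brackets. Library 1 (red diamonds) is to the left for astrocyte, microglia, meningeal fibroblast and border macrophage lists and to the right for pan-neuronal, glutamatergic, oligodendrocyte precursor and dividing cell lists.

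Gene families were then ordered by level per kb of exon. In 38 families with 363 members, 312 members reached 1 CPM in all 4 libraries. A member is called above the next where the values of the 4 libraries do not overlap. By that rule the first member was above the second in 27 families, and in 30 the same member came first in all 4 libraries. Lengths are the union of annotated exons, and 7 families have another first member per kb of coding sequence, which is named where it applies.

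Ionotropic glutamate receptors carry fast excitation. Among the AMPA receptor subunits, Gria1 had 58.03, 56.7, 53.7 and 49.2 CPM per kb and Gria2, the subunit that makes the channel impermeable to calcium, had 24.1, 25.1, 21.7 and 21.5 CPM per kb. Gria1 therefore exceeded Gria2 in each library, by 2.26- to 2.47-fold per kb of exon and by 1.22- to 1.33-fold per kb of coding sequence. Gria4 (3.86 ± 0.315) and Gria3 (3.199 ± 1.12 CPM per kb) lay far lower and overlapped. The auxiliary proteins that traffic AMPA receptors were led by the cornichon Cnih2 at 508, 285, 372 and 358 CPM per kb, followed by the TARP Cacng7 (56.04 ± 5.06) and Shisa6, which was highest in library 1 (79.5, 32.3, 36.8 and 28.9 CPM per kb). Cacng8 and Cacng2, TARPs of the hippocampus and cerebellum, stood at 26.1 ± 7.03 and 9.996 ± 0.95 CPM per kb.

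NMDA receptors, which gate plasticity, need the subunit Grin1, and Grin1 had 124, 113, 143 and 139.9 CPM per kb, above every other subunit. The order of all 7 subunits was the same in each library. Grin2c (15.4 ± 3.14 CPM per kb) came before Grin2b (4.17 ± 0.263), the subunit of young neurons, and Grin2d (2.61 ± 0.469). Per kb of coding sequence Grin2b (23.2) and Grin2c (20.8) changed places in the mean. Grin2a, the subunit of mature synapses, was close to absent, with 0.143, 0.0809, 0.0805 and 0.0606 CPM per kb, and Grin2b exceeded it 31.0-, 53.7-, 49.2- and 64.8-fold per kb of exon and 50.8- to 106-fold (mean 81.3) per kb of coding sequence.

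Kainate receptors were led by Grik5 (111, 89.8, 109.8 and 108 CPM per kb), a high-affinity subunit that needs a partner of the low-affinity group, and Grik4 (18.3 ± 1.18). The low-affinity subunits Grik3 (4.27 ± 0.441), Grik1 (3.14 ± 1.31) and Grik2 (2.52 ± 0.414) were lower and overlapped between neighbours. Grik1 was the only subunit at least 2-fold lower in library 1 (1.39, 4.55, 3.14 and 3.46 CPM per kb). The delta receptor Grid1 had 6.399 ± 0.938 CPM per kb. Of the metabotropic receptors, Grm5, of group I, came first in the mean (8.22, 6.91, 6.11 and 5.54 CPM per kb), above Grm4 (4.94 ± 0.308), but Grm2 came first in library 4 and was low in library 1 (2.13, 5.14, 4.99 and 6.03 CPM per kb). Grm6, the receptor of retinal bipolar cells, had 0.0102 ± 0.0119 CPM per kb.

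**Figure D4:**
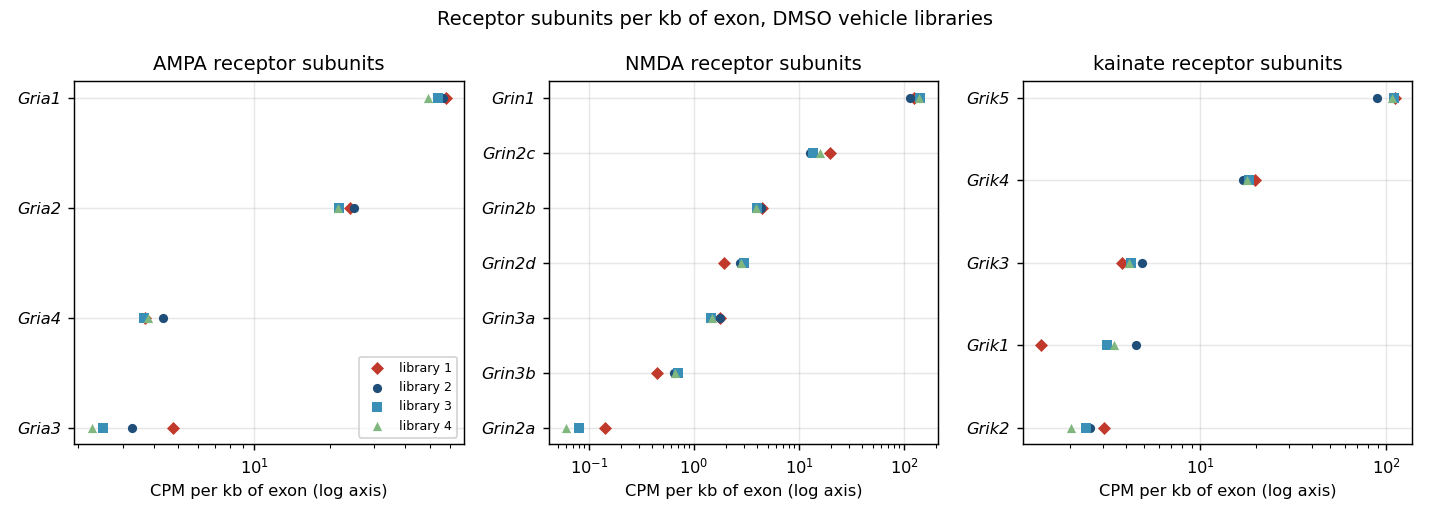
CPM per kb of exon (log axes) of AMPA, NMDA and kainate receptor subunits in each DMSO vehicle library. Gria1, Grin1 and Grik5 lead in all 4 libraries, and Grin2a is the lowest NMDA receptor subunit in each.

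GABA-A receptors are chloride channels that carry fast inhibition. Gabra5, an alpha subunit of extrasynaptic hippocampal receptors, led with 33.7, 30.6, 26.8 and 26.5 CPM per kb, above Gabrb2 (13.9 ± 1.46) and Gabra2 (7.35 ± 2.305). Gabra6, known from cerebellar granule cells, and Gabrp were under 1 CPM. For the metabotropic GABA-B receptor, which needs both of its subunits, Gabbr1 had 53.6 ± 4.39 and Gabbr2 8.195 ± 2.86 CPM per kb. The glycine receptor was represented by Glrb (8.95 ± 0.998) and Glra2, its fetal alpha subunit (7.83 ± 2.299 CPM per kb), while Glra1, Glra3 and Glra4 stayed at or under 0.0675 CPM per kb in each library.

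Chloride gradients are set by cotransporters, and Slc12a5, the neuronal extruder KCC2, had 21.6, 14.5, 15.3 and 14.9 CPM per kb. Slc12a4, a widely expressed relative, had 21.2, 17.5, 17.04 and 18.5 CPM per kb and overlapped it, and Slc12a5 comes first per kb of coding sequence. Slc12a5 exceeded the importer Slc12a2 (NKCC1) by 9.68-, 4.25-, 7.13- and 6.66-fold per kb. Of the sodium channels, Scn2a, counted under its older symbol Scn2a1, had 16.1, 14.4, 13.96 and 12.9 CPM per kb and Scn8a 11.8, 8.89, 10.1 and 9.01. Both were far above Scn1a (0.71 ± 0.0512 CPM per kb), the channel of interneurons, and Scn10a had 0 counts in all 4 libraries. Cacna1h, a T-type channel, led the calcium channels at 20.1 ± 1.296 CPM per kb, before the presynaptic P/Q-type Cacna1a (8.66 ± 1.298) and N-type Cacna1b (7.55 ± 1.204), which overlapped. The HCN pacemaker channels Hcn2 (44.1 ± 4.07), Hcn3 (21.3 ± 1.46) and Hcn4 (1.903 ± 0.249 CPM per kb) kept this order in all 4 libraries.

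The release machinery was strongly represented. The vesicle SNARE Vamp2 had 358, 283, 309.6 and 313 CPM per kb, and the plasma membrane SNAREs Stx1a and Snap25 had 211, 142, 184 and 175 and 109, 90.6, 87.2 and 83.3 CPM per kb. Snap25 exceeded its widely expressed relative Snap23 (2.09 ± 0.417) in all libraries. The vesicle membrane protein synaptophysin, Syp, had 704, 504, 586 and 600.2 CPM per kb, above Vamp2 per kb of exon and below it per kb of coding sequence, and synapsin Syn1 had 161 ± 25.3 CPM per kb, above Syn2 (41.04 ± 16.2) and Syn3 (3.43 ± 0.965). Of 14 synaptotagmins, Syt11, which does not bind calcium, led at 221, 203, 190.5 and 194 CPM per kb, followed by Syt5 (110.4, 127, 146 and 142). Syt1, the calcium sensor of fast release in the hippocampus, had 36.1 ± 6.93 CPM per kb, and Syt2, its relative in the hindbrain, 0.0711 ± 0.0353. The adhesion proteins that join the 2 sides of the synapse were led by Nlgn2, the neuroligin of inhibitory synapses (98.1 ± 6.85 CPM per kb), and Nrxn2 (87.1 ± 17.8), which overlapped.

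On the postsynaptic side, Dlgap3 (64.8 ± 7.81), Dlgap4 (63.8 ± 6.302) and Dlg4, which encodes PSD-95 (61.6 ± 7.38 CPM per kb), overlapped, and Dlg4 came first per kb of coding sequence. Shank1 was highest in library 1 (58.01, 33.2, 37.4 and 35.3 CPM per kb). Homer1, which gives rise to an activity-induced short form, had 2.29 ± 0.206 CPM per kb, and gephyrin (Gphn), the scaffold of inhibitory synapses, 13.6 ± 1.31. CaM kinase II, the plasticity kinase, kept the order Camk2b, Camk2a, Camk2g and Camk2d in all libraries per kb of exon. Camk2b had 223, 187, 191 and 184 CPM per kb and Camk2a 149, 69.5, 86.9 and 80.4, a ratio of 1.499, 2.69, 2.20 and 2.29. Per kb of coding sequence the ratio was 0.986 to 1.77 (mean 1.43), the lowest value under 1. Of the calmodulin genes, Calm3 (893 ± 212) exceeded Calm2 (396 ± 75.6 CPM per kb), and both were highest in library 1.

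Cytoskeletal families were among the most abundant. Tuba1a held 91.1% ± 1.08 of the alpha tubulin level per kb (1675, 1419, 1320.1 and 1358 CPM per kb). The near-identical Tuba1b (80.2 ± 17.1) and Tuba1c (6.74 ± 1.68 CPM per kb) share sequence with it, and reads with several positions stand in a summary line of the table and under no gene, so these levels are uncertain. Beta tubulins came in a fixed order in each library, Tubb2b (1081 ± 177), Tubb3 (796 ± 249.8), Tubb5 (686 ± 128), Tubb2a (623 ± 169) and Tubb4a (239.9 ± 59.6 CPM per kb), and all 7 detected members were highest in library 1. Library 1 was the highest or lowest for 71.6% of all genes with a mean of at least 10 CPM. Tau (Mapt, 327, 246, 265 and 245 CPM per kb) led the microtubule-associated proteins, above Map1b (157 ± 31.8) and the dendritic Map2 (34.04 ± 6.59). Stathmins were led by Stmn3 (742 ± 135) per kb of exon and by Stmn2 (437 ± 104 CPM per kb of exon) per kb of coding sequence. Actb (1771 ± 111) exceeded the thymosin Tmsb4x (1411 ± 162 CPM per kb), an order that reverses per kb of the very short thymosin coding sequence. Of the intermediate filaments, Gfap (594, 2701, 2202 and 2338 CPM per kb) and Vim (311, 725, 528 and 571) stood above the neuronal Nefl (38.2 ± 8.75) and Ina (32.4 ± 3.23 CPM per kb) in each library.

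Of the 14-3-3 adaptor proteins, Ywhae (665 ± 59.9) exceeded Ywhag (258 ± 48.7) and Ywhaz (193 ± 17.01 CPM per kb), and Sfn, the epithelial member, had 7.49 ± 3.08. Among lipid carriers, Apoe was followed by Fabp7 (642 ± 232) and clusterin, Clu (632 ± 178 CPM per kb), which overlapped. Fabp7 had 975, 628, 480 and 484 CPM per kb and Clu 368, 759, 686 and 714. Clu was thus above Fabp7 in each library except library 1. The liver apolipoproteins Apoa1 and Apob did not reach 1 CPM in all libraries.

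Genes of acetate use and acetyl-CoA supply are the background for the treatments of the study. Acss2, the cytosolic and nuclear acetyl-CoA synthetase (chr2:155517948-155585724, plus strand), had 36.9, 24.2, 24.7 and 24.8 CPM, a mean of 27.7 ± 6.18. Its mitochondrial relative Acss1 had 24.6, 27.4, 22.9 and 23.6 CPM. Per kb of exon the 2 genes overlapped, 7.25 ± 1.62 and 6.81 ± 0.547 CPM per kb, with Acss2 above Acss1 only in libraries 1 and 3 (ratios 1.42, 0.839, 1.02 and 0.996). Per kb of coding sequence the ratio was 0.793 to 1.34 (mean 1.01). Acly, which makes acetyl-CoA from citrate instead, had 252, 144, 126 and 126 CPM. That was 4.22 to 5.66 times Acss2 per kb of exon and 3.50 to 4.70 times per kb of coding sequence. For both Acss2 and Acly library 1 was the highest and the other 3 lay close together. The mean for Acss2 without library 1 was 24.6 ± 0.309 CPM and for Acly 132 ± 10.3 CPM. The summed markers of neurons and of glia differed between library 1 and the others as given above, and their part in these values was not tested.

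The highest levels of the list belonged to the citrate carrier Slc25a1 (200.1, 141, 150.0 and 158 CPM per kb) and citrate synthase Cs (150.3, 134, 142 and 135), which overlapped, and Cs comes first per kb of coding sequence. The pyruvate dehydrogenase subunits Pdhb (73.3 ± 3.32) and Pdha1 (40.7 ± 7.05) and the thiolases Acat2 (56.9 ± 19.6) and Acat1 (54.1 ± 2.57 CPM per kb) followed. Acat2 had 86.1, 49.8, 46.9 and 44.6 CPM per kb and Acat1 57.0, 54.6, 54.0 and 50.8. Acat2 was thus above Acat1 only in library 1. Of the transporters that carry acetate and lactate, Slc16a1 had 8.66, 20.1, 15.4 and 15.1 CPM per kb, lowest in library 1, while Slc16a3 and Slc16a7 had 1.02 ± 0.571 and 0.345 ± 0.0773. Acss3 and Acot12, a hepatic acetyl-CoA hydrolase, were close to absent, with 0.0116 ± 0.0109 and 0.0258 ± 0.0156 CPM per kb. In glycolysis, Pkm (873 ± 63.8) and Aldoa (811 ± 33.99 CPM per kb) overlapped at the top. Hk1, the brain hexokinase, had 111 ± 8.31 CPM per kb, and Hk3, a hexokinase of myeloid cells, was 11.4-fold lower in library 1 (3.11, 34.6, 34.97 and 37.02 CPM). Eno1 was listed at 0.117, 0.11, 0 and 0 CPM, but it has a near-identical copy and its level is uncertain. The neuronal glucose transporter Slc2a3 (26.7 ± 1.89 CPM per kb) stood below Slc2a6 (38.5 ± 8.52) per kb of exon and above it per kb of coding sequence. Of the subunits of the energy sensor AMPK, the gamma subunit Prkag1 led with 39.4, 40.01, 40.8 and 41.1 CPM per kb.

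Zinc-dependent histone deacetylase and acetyltransferase genes had a lower median spread between libraries than all genes, and sirtuins did not. Of the zinc-dependent histone deacetylases, all 11 reached 1 CPM in every library, and Hdac3 (65.6, 67.5, 63.8 and 62.97) and Hdac5 (61.96, 58.4, 63.3 and 65.3 CPM per kb) overlapped at the top. Hdac2, a deacetylase linked to memory, had 20.7 ± 2.98 and Hdac1 20.2 ± 0.896 CPM per kb. Hdac10 (13.5, 19.1, 22.1 and 23.8) and Hdac8 (4.42, 8.01, 6.30 and 5.66 CPM per kb) varied more. The median SD of log2 CPM over these 11 was 0.09, against 0.14 over the 9927 genes. Spread depends on level, and the median SD was 0.13 for genes of 30 to 100 CPM and 0.10 for 100 to 300 CPM. The comparison with the 9927 genes was not matched for level. The 11 of 12 acetyltransferases with a mean of at least 10 CPM had the same median SD, 0.09, and the family was led by Kat2a (50.5, 48.5, 52.3 and 51.9) and Kat5 (36.8, 40.1, 39.9 and 39.7 CPM per kb), with the coactivators Crebbp (3.702 ± 0.12) and Ep300 (2.46 ± 0.362) lower. Sirtuins, the NAD-dependent deacetylases, had the same order in each library, Sirt2 (89.2, 133, 114 and 127 CPM per kb), which is high in oligodendrocytes, then Sirt7 (54.2 ± 5.45), Sirt3 (29.2 ± 3.12), Sirt6 (21.3 ± 1.19), Sirt4 (4.599 ± 0.321), Sirt5 (2.92 ± 0.0657) and Sirt1 (1.36 ± 0.253 CPM per kb). The 4 sirtuins with a mean of at least 10 CPM had a median SD of 0.15, no lower than that of all genes. No member of these 3 families with a mean of at least 10 CPM was 2-fold apart in library 1, where 1.11% of all genes were higher and 3.65% lower, so a count of 0 is close to that share.

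Immediate early genes are switched on by activity within minutes, without new protein. Jund, the AP-1 member that is expressed constantly, had 122, 164, 212 and 218 CPM per kb, 6.05-fold above the next gene, Junb (29.5 ± 2.85), and Jun (27.8 ± 3.06 CPM per kb) overlapped Junb. Fos had 20.9, 26.8, 18.2 and 15.9 CPM and the synaptic effector Arc 13.6, 13.1, 15.7 and 14.3 CPM, and for both library 1 lay within the range of the others. Of the 14 members with a mean of at least 10 CPM, 5 were at least 2-fold higher in library 1, against 1.11% of all genes. They were Npas4, a factor induced by calcium influx (57.2, 20.1, 29.7 and 23.2 CPM), Nr4a3, an orphan nuclear receptor (179.5, 86.6, 89.97 and 81.7 CPM), Egr4 (26.8, 6.896, 12.4 and 10.2 CPM), Egr3 (19.6, 7.85, 7.58 and 7.997 CPM) and Egr1 (53.1, 35.6, 23.6 and 20.03 CPM). In each of these 5 genes library 1 lay above the other 3. The part of the different neuronal and glial marker levels of library 1 in this was not tested.

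The promoters of Npas4, Nr4a3 and Egr4 are shown because these genes were high together in library 1 (Egr1 and Egr3 have no entry), with TGACG, the core of the cAMP response element that CREB binds, in capitals on either strand. Entries are from RefSeq on GRCm38.p6, 5′ to 3′ on the strand of the gene. Npas4 lies on the minus strand at chr19:4990091-4990185, Nr4a3 on the plus strand at chr4:48045113-48045207, and Egr4 on the minus strand at chr6:85513649-85513743. Distances of the match shown in the middle of each window to the start site are 169, 147 and 109 bases.
Npas4: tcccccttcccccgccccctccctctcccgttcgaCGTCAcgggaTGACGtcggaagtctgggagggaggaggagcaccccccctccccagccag
Nr4a3: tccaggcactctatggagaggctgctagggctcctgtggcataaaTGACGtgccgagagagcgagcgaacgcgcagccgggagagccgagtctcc
Egr4: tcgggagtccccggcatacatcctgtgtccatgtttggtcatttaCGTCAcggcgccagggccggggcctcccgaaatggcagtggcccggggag
TGACG was found on either strand for 10 of the 13 immediate early genes with an entry (76.9%) and for 23.0% of 27025 genes, in the same windows of 300 bases. The 10 were Fos, Fosb, Junb, Egr2, Egr4, Npas4, Nr4a1, Nr4a2, Nr4a3 and Btg2, and 3 of them (Npas4, Nr4a3 and Egr4) were at least 2-fold higher in library 1. Matches of TGACG and AGGAAGT can overlap only by their end base. This motif too was picked after the values were seen.

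Neuropeptide precursors were led by Sst (212, 319.7, 350.3 and 354 CPM per kb) and Vgf, a peptide induced by neurotrophins (194, 192, 266 and 268), which overlapped. Npy, of interneurons, had 68.9, 104, 107 and 120.5 CPM per kb and chromogranin A (Chga) 104, 83.8, 90.8 and 89.5. Cholecystokinin, Cck, was highest in library 1 (129, 44.3, 57.3 and 46.9 CPM per kb), while Penk (5.14, 13.4, 12.6 and 11.3 CPM), the enkephalin precursor, and Cartpt (4.36, 19.8, 19.3 and 19.5 CPM) were at least 2-fold lower there. Of 19 precursors, Tac2, Crh, Nts, Gal and Vip did not reach 1 CPM in all libraries. The neurotrophin Bdnf had 63.8, 56.3, 56.1 and 51.4 CPM, and its receptor Ntrk2 25.6, 38.4, 30.5 and 30.6 CPM per kb, overlapping the sorting receptor Sort1 (29.9, 28.7, 27.7 and 26.2).

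Transcripts of both sexes were present in each library. Xist, the RNA that silences an X chromosome in female cells, had 63.8, 84.3, 69.5 and 68.3 CPM, and Eif2s3y, on the Y chromosome, had 18.5, 21.9, 19.3 and 19.3 CPM. The ratio of Xist to Eif2s3y per kb of exon was 0.353, 0.394, 0.369 and 0.362, so it differed little between libraries, library 1 included. Tsix, which runs antisense to Xist, had 0.701, 1.25, 1.46 and 1.53 CPM, and since the strand setting of the counting is not given, reads of the pair cannot be told apart. Ddx3y had 5.27 ± 0.895 CPM per kb against 17.8 ± 3.56 for its X-linked relative Ddx3x.

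The spread between libraries was measured in 2 ways. The biological coefficient of variation is the spread between replicates beyond counting error, and technical differences between libraries enter it too. In edgeR it was 20.6% over 13972 genes, and 9.25% over 13896 genes when library 1 was left out. It was 22.9%, 24.2% and 23.5% without library 2, 3 or 4. The SD of log2 CPM (prior count 2) had a median of 0.14 over 9927 genes with a mean of at least 10 CPM, and 0.10 without library 1. An SD under 0.1 held for 2972 genes (29.9%) with library 1 and for 5185 (52.2%) without it. At the other end, 138 genes had an SD of at least 1, of which library 1 was the lowest for 135 and the highest for 3, and 1 gene, Usp9x, without library 1.

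With all 4 libraries the median SD of log2 CPM was lowest for genes of 100 to 300 CPM, and without library 1 it was lowest above 1000 CPM. The median SD was 0.41 for genes of 1 to 3 CPM, 0.18 for 10 to 30 CPM, 0.10 for 100 to 300 CPM and 0.16 above 1000 CPM. Without library 1 the values were 0.27, 0.13, 0.08 and 0.07. The SD that counting alone would give was 0.22, 0.07, 0.02 and 0.01 in those ranges, close to the measured median only for genes of 1 to 3 CPM without library 1.

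**Figure D5:**
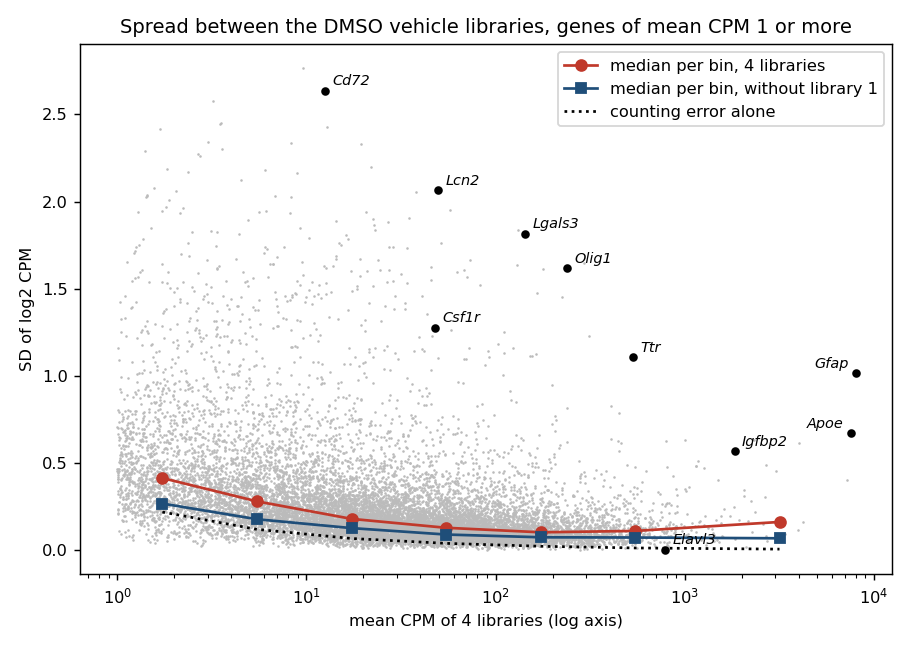
SD of log2 CPM over 4 libraries against mean CPM (log axis) for genes with a mean of at least 1 CPM, with the median per range of level with (red) and without (blue) library 1 and the SD from counting alone (dotted). The medians fall from 0.41 to 0.10 and rise to 0.16 above 1000 CPM with library 1, and end at 0.07 without it.

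The 15 genes of the largest spread were all lowest in library 1, and most are genes of macrophages, of reactive glia, of the oligodendrocyte lineage or of mesenchyme. Cd72, a B cell and myeloid receptor, had 0.35, 17.5, 16.5 and 15.9 CPM, Mmp12, the macrophage elastase, 0.506, 16.8, 15.9 and 18.1 CPM, and the chemokine Ccl9 1.28, 30.004, 25.8 and 30.5 CPM. Hcls1, Lilrb4a, Lilr4b and Adgre1 (F4/80), further myeloid genes, were 13.2- to 14.5-fold lower in library 1. Lilrb4a and Lilr4b are close relatives, so their levels are uncertain. Lcn2, lipocalin 2 of reactive astrocytes, had 3.66, 88.2, 53.04 and 53.3 CPM and was highest in library 2. Bcas1 (2.84, 64.997, 34.97 and 48.97 CPM) and Gpr17 mark the oligodendrocyte lineage, and Igfbp7 (4.98, 78.5, 64.2 and 82.98 CPM), Cd248 (2.18, 28.2, 25.9 and 35.1 CPM), Tinagl1 and Anxa1 are mesenchymal or matrix genes. Padi2, a citrullinating enzyme, had 13.4, 195, 160.2 and 157 CPM.

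Olig1 had the highest ratio of library 1 to the others. It was followed by Igfbp4, a binding protein of insulin-like growth factors (368, 76.9, 83.7 and 75.5 CPM), the adhesion molecule Mdga1 (246, 53.6, 76.4 and 60.6 CPM), the deiodinase Dio2, which activates thyroid hormone in astrocytes (76.6, 22.6, 18.9 and 17.8 CPM), and Slco1c1, a thyroid hormone transporter (149.9, 44.6, 39.8 and 35.9 CPM). In all 5 the other 3 libraries lay together, far below library 1. Library 2 was highest for Gbp2 (1.67, 19.6, 9.28 and 10.5 CPM), an interferon-induced GTPase, complement C3 (5.84, 94.2, 52.4 and 52.6 CPM) and Lcn2, which are genes of reactive glia, and for the deubiquitinase Usp9x (20.1, 34.1, 9.03 and 10.7 CPM). Library 4 was highest for Ttr, the matrix enzyme Lox (5.18, 32.2, 21.3 and 39.9 CPM), Tagln and Acta2.

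Without library 1, other genes had the largest spread. Usp9x, Ipo7 (16.7, 22.8, 8.78 and 8.41 CPM), a nuclear import receptor, Tnpo1 (13.3, 20.4, 8.83 and 9.81 CPM), a second import receptor, and Klhl24 (10.98, 18.4, 8.18 and 7.83 CPM) were each highest in library 2, and Malat1 was lowest there. Transcript length moved with the library as well. In library 2 the median log2 ratio to the others was -0.00 for the shortest 2477 genes (up to 2.16 kb of exon) and 0.12 for the longest 2476 (over 5.20 kb). In library 1 it rose as well, from -0.08 to 0.01. In libraries 3 and 4 it ran the other way, from 0.04 to -0.06 and from 0.05 to -0.09. The part of length in the values of single genes was not tested.

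The steadiest genes were mostly widely expressed. Commd3, a gene of copper and endosomal sorting, had 90.02, 90.1, 89.9 and 89.7 CPM, and Dlst, a subunit of the ketoglutarate dehydrogenase complex, 279.5, 281, 281 and 279.8 CPM. Elavl3, a neuronal gene, came next. Hnrnpa0 (an RNA-binding protein), Ppp2cb (a phosphatase subunit), Nme2 (a nucleoside diphosphate kinase), Sar1a (vesicle budding), Ubn1 (a histone chaperone), Rptor (a subunit of mTOR complex 1) and Smarcb1 (a chromatin remodeller) completed the 10, each with an SD of log2 CPM of 0.01 or less in all 4 libraries, library 1 included.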

How the data were processed

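The members and gene lists were chosen with earlier results of these data known. Per the labels' protocols, cells were lysed in QIAzol, RNA was purified on RNeasy columns, and a directional NEBNext Ultra II kit gave the libraries. The deposited values are whole-number counts per gene symbol, which the authors made and did not normalize. Per the submitters' processing notes, the tools were STAR 2.5.2a, HTSeq 0.6.1p1 and DESeq2 and the build was mm10. How strand was counted, and on which annotation, was not given in the sources used here. Overlapping, antisense and near-identical genes are therefore uncertain.

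The 5 summary lines that name no gene took 38.9% to 39.7% of a library (25.0% to 26.0% reads with several positions, 12.7% to 13.6% on no gene, 0.530% to 0.588% ambiguous) and were dropped before CPM was taken on the gene total. Columns of the other 11 libraries were not analysed here, and 0 columns lacked a sample. Mitochondrially encoded genes were not analysed here. Symbols were matched to GENCODE M21 (GRCm38), 24108 of 24498 (501 by an older symbol). The 390 unmatched symbols held 0.837% of the counts. Exon length is the union of the basic transcripts' exons. Promoters are from RefSeq on GRCm38.p6.

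Gene counts of 19929931 to 27262766 per library set the precision. No library was a copy of another, with a chi-square per gene of 4.65 to 86.8 between pairs (genes of at least 20 counts in the pair). The spread was estimated in R 4.3.3 with edgeR 4.0.16 (TMM scaling, intercept only, genes of at least 1 CPM in 2 libraries). Tables were made in Python 3.11.15. No test between groups was made, and neighbours in a family were separated only where 4 values did not overlap. Alternatives were DESeq2 1.42.0 size factors, TMM-scaled sizes, other filters, prior counts, totals and lengths, and leaving out each library. The comparison of library 1 under other scalings and the ratios per kb of coding sequence were added after seeing the data.

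Genes were named by rule: the 20 highest by mean CPM, the 3 highest of each marker list and any member under 1 CPM, the 3 highest and the lowest detected member of each family per kb, the 15 largest and 10 smallest SDs of log2 CPM among genes of a mean of at least 10 CPM, and Acss2, Acss1, Acly, Xist and Eif2s3y. Further list members, the genes highest in a single library, those of the largest spread without library 1, both motifs and the promoters were chosen after their values were seen. Some genes that the rule names are not reported here.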

Additional observations from a re-analysis of the deposited data

Results flagged for a closer look

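In a group of 4 libraries a value was looked at again where the gap of the highest or lowest library to its neighbour, divided by the whole range, passed Dixon's 95% critical value. Chance alone does so for about 1 in 20 groups. Of 51 results examined 13 passed, and in all 13 the library apart was library 1. Among all 9927 genes with a mean of at least 10 CPM, 9.30% passed, and library 1 was the highest or lowest of the 4 for 71.6%.

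The gap was 0.86 of the range for the summed CPM of pan-neuronal markers, 0.917 for oligodendrocyte precursor markers and 0.844 for dividing cell markers, with library 1 the highest in each. For microglia markers it was 0.937, with library 1 the lowest. For single genes it was 0.898 for Apoe, 0.868 for Ftl1, 0.891 for Cst3 and 0.867 for Ctsd, with library 1 the lowest, and 0.895 for Tubb2b, 0.955 for Acss2 and 0.858 for Acly, with library 1 the highest. The share of counts of the 10 most abundant genes (0.984) and the number of genes at 1 CPM (0.882) were lowest in library 1. Of 113 family members at the top of their families, 21 passed, 17 of them through library 1. No cause of the distance of library 1 was tested.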

How the results depend on the processing

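No paired analysis was possible because a single group is described. The share of counts of the 10 highest genes, the number of genes at 1 CPM, the number of marker lists at 100 CPM, the number of families with a clear first member and the median SD of log2 CPM kept within 1.5 times, or within the spread, of the value given under each alternative run. The biological coefficient of variation did not: it was 20.6% with 4 libraries and 9.25% to 24.2% when a library was left out, the lowest without library 1. Per kb of coding sequence the first 2 members changed places in 7 families, on the log2 scale by -0.38 for Slc12a4 over Slc12a5, -0.11 for Syp over Vamp2, -0.25 for Dlgap3 over Dlgap4, -0.11 for Stmn3 over Stmn2, -2.06 for Actb over Tmsb4x, -0.025 for Slc25a1 over Cs and -0.37 for Slc2a6 over Slc2a3. Leaving out a library gave -0.012 to 0.062 for Dlgap3 over Dlgap4 (-0.0028 without library 4, below 0 also without library 3) and -0.075 to 0.16 for Ddx3x over Kdm5c (below 0 without library 2); the members of both pairs overlapped. Counting the summary lines into the total lowered each list to 0.606 to 0.609 of its level, and 12 lists instead of 15 reached 100 CPM. Leaving out library 1 lowered the oligodendrocyte precursor sum to 0.596 of its level. The alternative without mitochondrially encoded genes was not run. Depth limits levels under 0.110 to 0.151 CPM, the level that 0 counts allow.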
